A study of Mus musculus with 12 samples.

Results

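The genes of the proteasome were followed in mouse bone marrow cells that carried a leukaemia fusion gene together with PRDM16 or a mutant form of it, PRDM16mut. Members were taken by name: every symbol that begins with Psma to Psmg followed by a digit and that all 3 deposited tables list, leaving out the immunoproteasome genes Psmb8, Psmb9 and Psmb10. This gave 46 of the 22364 symbols shared by the tables. Of these, 45 encode proteasome subunits, activators, inhibitors or assembly factors. Psmc3ip, a meiotic recombination factor, was matched by its name alone and is counted as a member only because the rule takes it.

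Each of 6 groups had 2 RNA-seq libraries from C57BL/6 cells grown with 15% FBS and 10 ng/ml each of IL3, IL6 and SCF. Cotransduced MLL-AF9 cells came from Lin- marrow that took up MLL-AF9 at the same time as PRDM16 or PRDM16mut, and E2A-HLF cells from Lin- marrow that took up E2A-HLF with PRDM16 or PRDM16mut; both were selected for 10 days in G418 and puromycin. Stable MLL-AF9 cells already carried MLL-AF9 when PRDM16 or PRDM16mut was added, and were selected for 10 days in puromycin. Both fusion genes encode transcription factors found in human acute leukaemias. The labels do not say what PRDM16mut changes, and no group lacks both forms, so a higher level with PRDM16 and a lower level with PRDM16mut cannot be told apart.

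The proteasome degrades ubiquitin-tagged proteins. Its 20S core is a barrel of alpha and beta rings whose catalytic beta subunits cut proteins inside, and the 19S particle at the ends binds, unfolds and feeds in the substrate. Interferon exchanges the catalytic subunits for the immunoproteasome subunits and raises the PA28 activator, which in haematopoietic cells changes the peptides available to MHC class I. The transcription factor NRF1, encoded by Nfe2l1, raises the subunit genes together when proteasome activity falls.

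Values are FPKM, fragment numbers divided by transcript length and by library size, so that genes of unlike length can be compared. A difference is PRDM16 minus PRDM16mut on the scale of log2(FPKM + 1), tested with limma within 1 table, and a call is a Benjamini-Hochberg adjusted p under 0.05 over all genes tested in that table. A gene was tested where at least 2 of 4 libraries reached 1 FPKM. That left 44 members in cotransduced MLL-AF9 cells and 45 in each of the other experiments. Nothing in the labels says that the libraries of a group are separate cultures, so each p-value covers only library-to-library spread, possibly technical.

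In cotransduced MLL-AF9 cells the Prdm16 transcript stood at 83.9 and 118.9 FPKM with PRDM16, against 29.5 and 30.1 FPKM with PRDM16mut. With E2A-HLF as the fusion gene it measured 49.2 and 56.55 FPKM with PRDM16, against 56.62 and 43.5 FPKM with PRDM16mut. In stable cells it measured 77.9 and 79.95 FPKM with PRDM16, against 89.05 and 94.6 FPKM with PRDM16mut. Prdm16 was thus higher with PRDM16 in the first (1.71 on the log2 scale, limma, adjusted p = 0.000418), lower in the third (-0.22, adjusted p = 0.0414) and not called in E2A-HLF cells (0.09, adjusted p = 0.622). Summed FPKM ran from 570872 to 683269 per library, and the tables give no read counts, so depth is unknown. The ribosomal RNA transcript Rn45s is listed at 0 in both PRDM16 libraries of cotransduced MLL-AF9 cells and at 941 to 1554 FPKM in the other 10 libraries. Those libraries also had the highest sums, 683269 and 672564 FPKM with PRDM16 against 631132 and 622670 FPKM with PRDM16mut. Every difference in cotransduced MLL-AF9 cells below rests on them, none can be had without both, and the part of this in the results was not tested. Only relative depth within a group could be estimated, from the steps between low values. By this estimate PRDM16 replicate 2 of cotransduced MLL-AF9 cells had 1.63 times the depth of replicate 1. The ratio was 0.92 to 1.17 in the other 5 groups. The estimate was poorest for the first of these groups, where 56.7 percent of ratios lay near whole-number ratios, against 63.8 to 64.97 percent elsewhere.

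Cell type markers moved with the groups in both cotransduced cell types. In cotransduced MLL-AF9 cells 7 of 7 neutrophil granule genes and 6 of 6 mast cell genes fell, with summed levels of 472 to 526 FPKM with PRDM16 against 8408 to 8473 FPKM with PRDM16mut and of 97.45 to 105 FPKM with PRDM16 against 2117 to 2135 FPKM with PRDM16mut. There 4 of 5 monocyte genes and 4 of 4 MHC class II genes rose, with sums of 4884 to 4917 FPKM with PRDM16 against 2025 to 2040 FPKM with PRDM16mut and of 1302 to 1423 FPKM with PRDM16 against 47.6 to 49.05 FPKM with PRDM16mut. In E2A-HLF cells 4 of 5 neutrophil genes tested rose and 4 of 4 MHC class II genes fell; the neutrophil sum was 1388 to 1451 FPKM with PRDM16 against 657 to 667.5 FPKM with PRDM16mut and the MHC class II sum 8.39 to 9.16 FPKM with PRDM16 against 38.5 to 42.8 FPKM with PRDM16mut. In stable cells 2 neutrophil genes fell and 1 monocyte gene rose, with a neutrophil sum of 7072 to 7229 FPKM with PRDM16 against 7359 to 7582 FPKM with PRDM16mut. Of the haematopoietic and progenitor genes in cotransduced MLL-AF9 cells, Spn rose (0.31 on the log2 scale) and Kit (-2.85), Cd34 (-1.88) and Ptprc (-0.20) fell. Their sum was 188 to 193 FPKM with PRDM16 against 228.3 to 228.5 FPKM with PRDM16mut. Most of it was Spn, at 131 and 139 FPKM with PRDM16 against 109 and 108 FPKM with PRDM16mut, and Ptprc, so the sum hides the falls of Kit and Cd34. There 3 of 3 erythroid genes tested rose, with a sum of 22.1 to 22.6 FPKM with PRDM16 against 5.35 to 5.41 FPKM with PRDM16mut. In E2A-HLF cells the monocyte sum was 307 to 329.5 FPKM with PRDM16 against 53.2 to 56.55 FPKM with PRDM16mut, where Emr1 and Lyz2 rose and Ctss and Mpeg1 fell. There 3 of 4 mast cell genes tested rose and 1 fell. The mast cell sum there was 113 to 118 FPKM with PRDM16 against 86.8 to 91.4 FPKM with PRDM16mut. Some markers counted above passed the filter only through the group where they were high, so their direction was fixed and these calls support nothing. They were Cma1 and Mcpt4 in cotransduced MLL-AF9 cells, and Ngp, H2-Aa, H2-Eb1 and Cma1 in E2A-HLF cells. Ms4a2 in E2A-HLF cells had 0.808 and 1.144 FPKM with PRDM16mut. It would not have passed on its PRDM16mut libraries alone, so its call supports nothing either. The B cell markers Cd79a and Pax5 and the stromal collagens stayed under 1 FPKM in all 12 libraries. In these bulk samples, fewer cells of a type and less RNA per cell cannot be told apart, and the part of cell composition in the results below was not tested.

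Most proteasome genes differed little, and the largest differences were those of the PA28 activator genes Psme1 and Psme2 and of the subunit Psmd8, apart from Psma8, which is described on its own. In cotransduced MLL-AF9 cells 20 of the 44 members tested were called, 14 higher and 6 lower with PRDM16, where 69.5 percent of all genes tested were called, 35.6 percent higher and 34 percent lower. In E2A-HLF cells 8 of 45 were called, 4 higher and 4 lower, against 43.8 percent of all genes, 22.7 percent higher and 21.1 percent lower. One of these 4 higher calls, Psma8, entered the test only through the PRDM16 libraries and supports nothing. None of 45 was called in stable cells, where 6.36 percent of all genes were called with limma, 4.2 percent higher and 2.16 percent lower. There 11 members had an unadjusted p under 0.05, 24.4 percent of those tested against 28.8 percent of all genes. The groups did not overlap for 36 of 44 members in cotransduced MLL-AF9 cells, against 86.3 percent of all genes, for 27 of 45 in E2A-HLF cells, against 73.7 percent, and for 25 of 45 in stable cells, against 60.6 percent. The shares of members called are below those of all genes. Their shares without overlap are also lower, but lie near those of all genes in cotransduced MLL-AF9 cells and stable cells. Nothing is read from them there.

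Scaling and single libraries moved these counts. For counts under an alternative, here and below, shares of all genes are not given, so these counts are not compared with all genes. With quantile normalization of the libraries, the calls were 11 higher and 9 lower in cotransduced MLL-AF9 cells, 2 higher and 10 lower in E2A-HLF cells and 0 higher and 4 lower in stable cells. The 4 in stable cells were Psmc4, Psmc5, Psmd3 and Psme3. Quantile normalization added calls for Psma2, Psmb7 and Psmc1 in cotransduced MLL-AF9 cells. In E2A-HLF cells it added Psma1, Psma3, Psma4, Psmb4, Psmb6 and Psmc3ip. A spread shared over all 12 libraries added Psma1, Psma2 and Psmb2 in cotransduced MLL-AF9 cells. In E2A-HLF cells it added Psma6, Psmc3ip, Psmd9, Psme3 and Psmg3. Where a gene is said below to have no call, this holds only for the fit within 1 table described at the start. Under quantile normalization, the shared spread or with a library left out, some of these genes were called. In cotransduced MLL-AF9 cells the count was 31 without PRDM16 replicate 1, 27 without PRDM16 replicate 2, 9 without PRDM16mut replicate 1 and 10 without PRDM16mut replicate 2. In E2A-HLF cells it was 5 without PRDM16mut replicate 1.

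Sizes were small for most subunits. The median absolute difference of the members tested was 0.14 on the log2 scale in cotransduced MLL-AF9 cells, against 0.37 over all genes tested there and 0.33 over genes with a mean of at least 10 FPKM. It was 0.08 in E2A-HLF cells, against 0.16 over all genes and 0.14 over the more abundant genes. In stable cells it was 0.05, against 0.07 over all genes and 0.06 over the more abundant genes. The median signed difference was 0.07, 0.05 and 0.01 in the 3 experiments in this order. With quantile normalization the members' median was -0.02 in cotransduced MLL-AF9 cells and -0.03 in E2A-HLF cells, so no direction is given for the genes as a whole.

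Calls in both cotransduced cell types were compared for the 44 members tested in both. No member had the same call in both, against 9.79 percent of the genes tested in both, and 6 had opposite calls, against 22.7 percent. Psme1, Psme2, Psmd7 and Psmg4 rose in cotransduced MLL-AF9 cells and fell in E2A-HLF cells. Psmd5 and Psme4 fell in cotransduced MLL-AF9 cells and rose in E2A-HLF cells. No call was made in any experiment for 23 members.

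**Figure D1:**
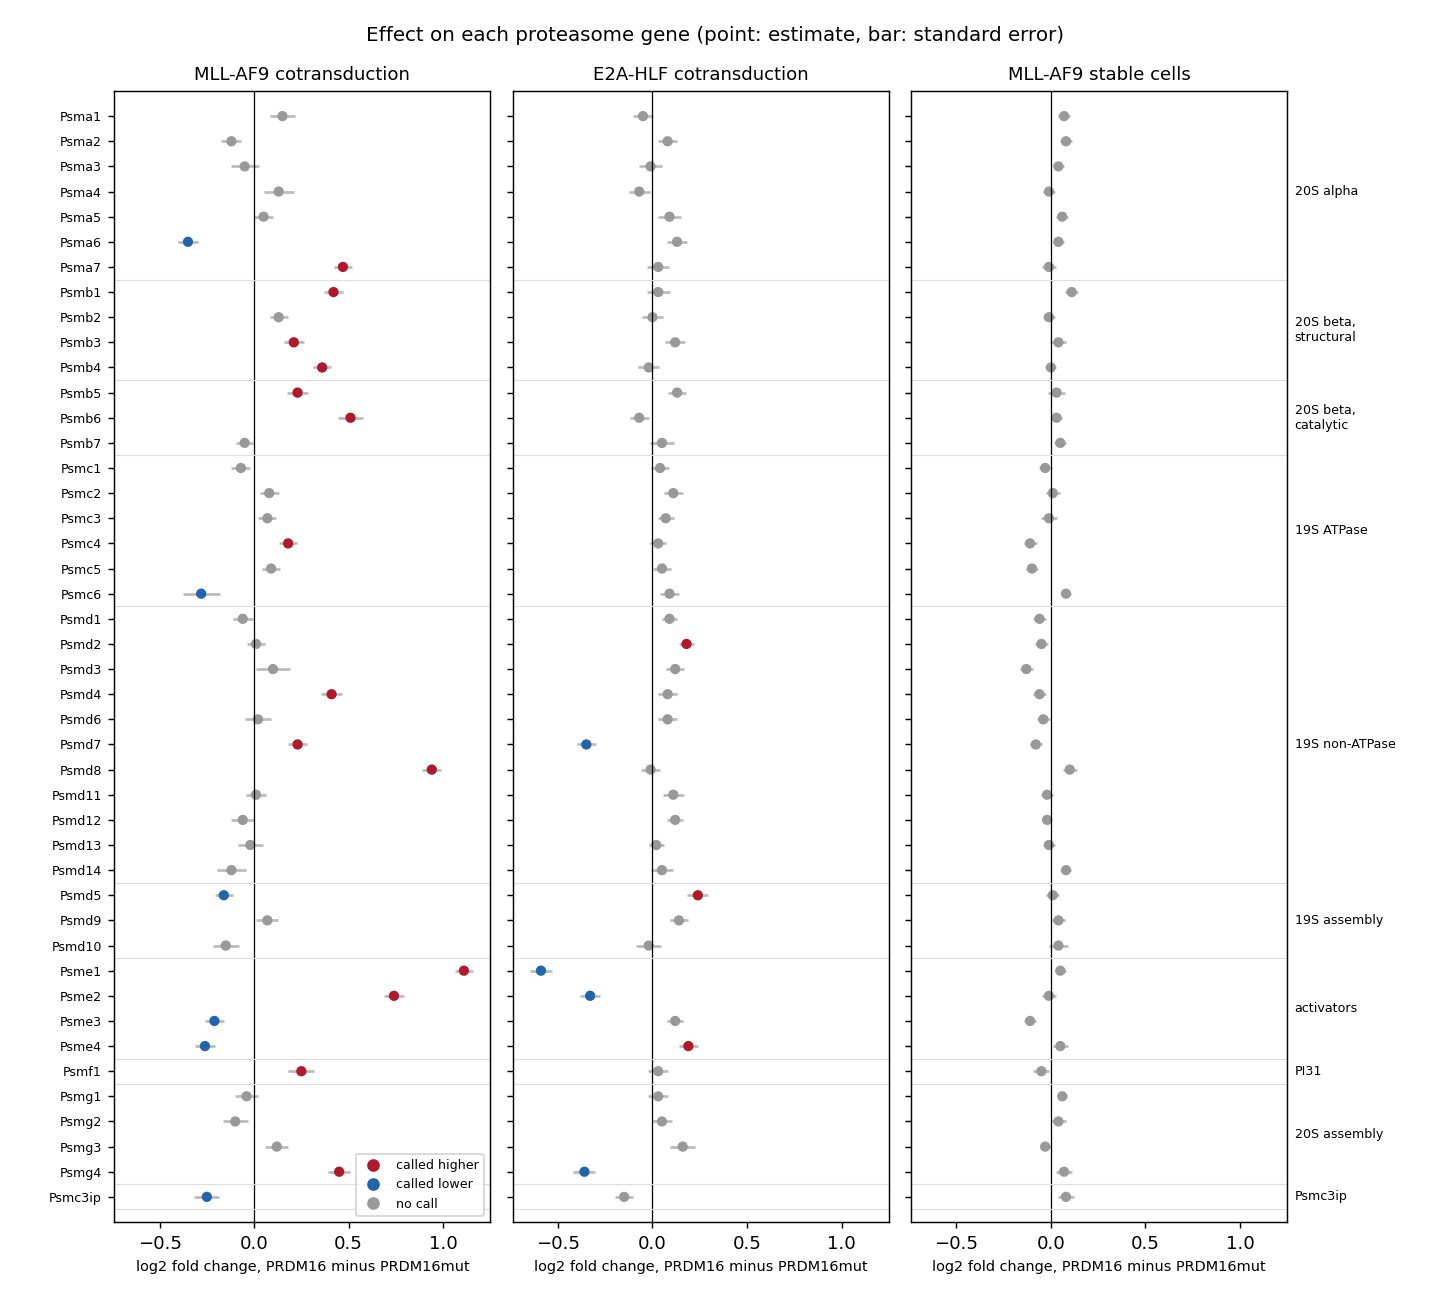
Difference in log2(FPKM + 1) between PRDM16 and PRDM16mut for each member tested, by role, in the 3 experiments. Points are limma estimates and bars their standard errors. Psma8 (3.43 in E2A-HLF cells) and Psmb11 are left out for scale and for lack of a test. The panels show cotransduced MLL-AF9, E2A-HLF and stable cells from left to right. Psme1 lies at 1.11 in the left panel and at -0.59 in the middle panel, while no point of the right panel is coloured.

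Psme1 had the largest difference of the members in cotransduced MLL-AF9 cells, and, Psma8 apart, in E2A-HLF cells. Psme1 and Psme2 encode PA28 alpha and PA28 beta, which form the ring that opens the 20S core and are induced by interferon gamma. Psme1 had 288 and 282 FPKM in the PRDM16 libraries of cotransduced MLL-AF9 cells, against 133.5 and 129 FPKM in the PRDM16mut libraries. In E2A-HLF cells Psme1 had 172.5 and 167 FPKM with PRDM16, against 245 and 267 FPKM with PRDM16mut. The PRDM16 libraries were thus the high ones in the first experiment and the low ones in the second, with no overlap in either. In stable cells Psme1 had 107 and 108 FPKM with PRDM16, against 106 and 103 FPKM with PRDM16mut, a difference of 0.05 on the log2 scale with no call (adjusted p = 0.341).

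The difference for Psme1 was 1.11 ± 0.05 (SE) in cotransduced MLL-AF9 cells (limma, adjusted p = 3.24e-05) and -0.59 ± 0.06 in E2A-HLF cells (adjusted p = 0.000596). Between these experiments the effect differed by 1.70 ± 0.07 on the log2 scale (limma contrast of contrasts over 12 libraries, adjusted p = 4.57e-09). Both calls held in all 10 alternatives tried for each experiment.

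Psme2 followed its partner. It had 246 and 239 FPKM with PRDM16, against 148 and 142 FPKM with PRDM16mut in cotransduced MLL-AF9 cells, and 145 and 135 FPKM with PRDM16 against 172 and 180 FPKM with PRDM16mut in E2A-HLF cells. Its differences were 0.74 ± 0.05 (limma, adjusted p = 0.000138) and -0.33 ± 0.05 (adjusted p = 0.00433), and both calls also held in all 10 alternatives. In stable cells Psme2 had 107 and 109 FPKM with PRDM16, against 106 and 112 FPKM with PRDM16mut, and the groups overlapped. The ratio of Psme1 to Psme2 FPKM was 1.17 and 1.18 with PRDM16, against 0.90 and 0.91 with PRDM16mut in cotransduced MLL-AF9 cells, so Psme1 moved further than Psme2. In E2A-HLF cells the ratio was 1.19 and 1.24 with PRDM16, against 1.42 and 1.49 with PRDM16mut.

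Both genes lie on mouse chromosome 14. The 250 bases before their starts are shown because both genes had opposite calls in cotransduced MLL-AF9 and E2A-HLF cells; they are RefSeq sequence of GRCm38.p6, Psme1 at chr14:55578244-55578493 on the plus strand and Psme2 at chr14:55591102-55591351 on the minus strand. Searched on both strands for GAAA repeated after 2 further bases, a form of the interferon-stimulated response element, and for TGACNNNGC and CCAAT, neither window held a match. These letters were not in these windows, and nothing follows from that about any factor.
Psme1: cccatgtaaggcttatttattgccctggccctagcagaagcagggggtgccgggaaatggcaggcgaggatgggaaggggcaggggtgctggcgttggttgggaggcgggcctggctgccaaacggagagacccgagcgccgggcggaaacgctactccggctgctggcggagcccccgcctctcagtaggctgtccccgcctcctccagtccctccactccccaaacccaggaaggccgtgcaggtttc
Psme2: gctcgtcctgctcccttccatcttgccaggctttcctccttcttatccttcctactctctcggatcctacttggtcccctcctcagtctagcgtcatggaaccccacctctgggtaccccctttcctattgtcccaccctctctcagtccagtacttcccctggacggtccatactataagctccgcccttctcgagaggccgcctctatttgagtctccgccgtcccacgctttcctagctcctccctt

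The other activators, Psme3 and Psme4, fell in cotransduced MLL-AF9 cells, where Psme1 and Psme2 rose. Psme3 encodes PA28 gamma, a nuclear activator that is not interferon-induced, and Psme4 encodes PA200, an activator known for its role with acetylated histones in spermatogenesis. Psme3 had 93.5 and 94.4 FPKM with PRDM16, against 110.5 and 108 FPKM with PRDM16mut in cotransduced MLL-AF9 cells, a difference of -0.21 ± 0.05 (limma, adjusted p = 0.0111). In E2A-HLF cells Psme3 had 109.5 and 109 FPKM with PRDM16 against 98.3 and 102 FPKM with PRDM16mut, and in stable cells 109 and 108 FPKM with PRDM16 against 115 and 119 FPKM with PRDM16mut, without a call in either. Its groups did not overlap in any of the 3 experiments. Psme4 had 18.4 and 18.4 FPKM with PRDM16, against 21.98 and 22.49 FPKM with PRDM16mut in cotransduced MLL-AF9 cells (-0.26 ± 0.05, adjusted p = 0.00715). With E2A-HLF as the fusion gene it had 22.4 and 24.1 FPKM with PRDM16, against 20.3 and 20.3 FPKM with PRDM16mut (0.19 ± 0.05, adjusted p = 0.0297). The calls of Psme3 and Psme4 in cotransduced MLL-AF9 cells were lost with either PRDM16mut library left out. That of Psme4 in E2A-HLF cells was lost without PRDM16 replicate 2, with either PRDM16mut library left out, without the filter and with quantile normalization. In stable cells Psme4 had 27.3 and 27.6 FPKM with PRDM16 against 25.7 and 27.5 FPKM with PRDM16mut, and the groups overlapped.

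The immunoproteasome genes, which the members leave out, moved with PA28. Psmb8, which replaces Psmb5 in the interferon-induced core, had 142 and 157 FPKM with PRDM16, against 67.2 and 64.8 FPKM with PRDM16mut in cotransduced MLL-AF9 cells. In E2A-HLF cells it had 101 and 98.9 FPKM with PRDM16, against 170 and 177 FPKM with PRDM16mut. The differences of Psmb8, Psmb9 and Psmb10 were 1.17, 0.95 and 1.29 in cotransduced MLL-AF9 cells and -0.79, -0.91 and -0.67 in E2A-HLF cells, all called with limma and in all 10 alternatives. In stable cells they were 0.01, 0.06 and -0.09, and none was called.

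The catalytic subunits that they replace moved less. Psmb5 carries the chymotrypsin-like activity and had 346 and 374 FPKM with PRDM16, against 309.5 and 304 FPKM with PRDM16mut in cotransduced MLL-AF9 cells, a difference of 0.23 ± 0.06 (limma, adjusted p = 0.0157). Psmb6 carries the caspase-like activity and had 186 and 204 FPKM with PRDM16 against 139 and 133.5 FPKM with PRDM16mut, a difference of 0.51 ± 0.06 (adjusted p = 0.00116). Psmb7 carries the trypsin-like activity and had 204 and 204 FPKM with PRDM16 against 211 and 212 FPKM with PRDM16mut, without a call (adjusted p = 0.349). The PRDM16 libraries were the high ones for Psmb5 and Psmb6 and the low ones for Psmb7, with no overlap, although the call of Psmb5 was lost with either PRDM16mut library left out and with quantile normalization.

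None of the 3 was called in the other experiments. In E2A-HLF cells Psmb5 had 231 and 220 FPKM with PRDM16, against 203 and 209 FPKM with PRDM16mut, Psmb6 139 and 133 FPKM with PRDM16 against 140 and 146 FPKM with PRDM16mut, and Psmb7 222 and 208 FPKM with PRDM16 against 199 and 217 FPKM with PRDM16mut. Psmb5 was the highest of their differences there, at 0.13, and the groups of Psmb7 overlapped. In stable cells Psmb5 had 250 and 249 FPKM with PRDM16, against 234 and 254 FPKM with PRDM16mut, Psmb6 140 and 136 FPKM with PRDM16 against 135 and 136 FPKM with PRDM16mut, and Psmb7 242 and 243 FPKM with PRDM16 against 230 and 238 FPKM with PRDM16mut. Those differences lay between 0.03 and 0.05 on the log2 scale.

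As a share of the summed FPKM of the 6 catalytic subunits, Psmb8 to Psmb10 made up 29.4% and 30.4% with PRDM16, against 18.4% and 17.98% with PRDM16mut in cotransduced MLL-AF9 cells. In E2A-HLF cells they made up 26.3% and 26.9% with PRDM16, against 39.9% and 39.6% with PRDM16mut. In stable cells the share was 20.7% and 20.4% with PRDM16, against 21.1% and 20.96% with PRDM16mut. The PRDM16 libraries thus had the larger share in 1 cotransduced cell type and the smaller in the other. This is a share of transcript, not of assembled particles, and with 2 libraries a group an exact permutation test cannot go below p = 0.333.

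**Figure D2:**
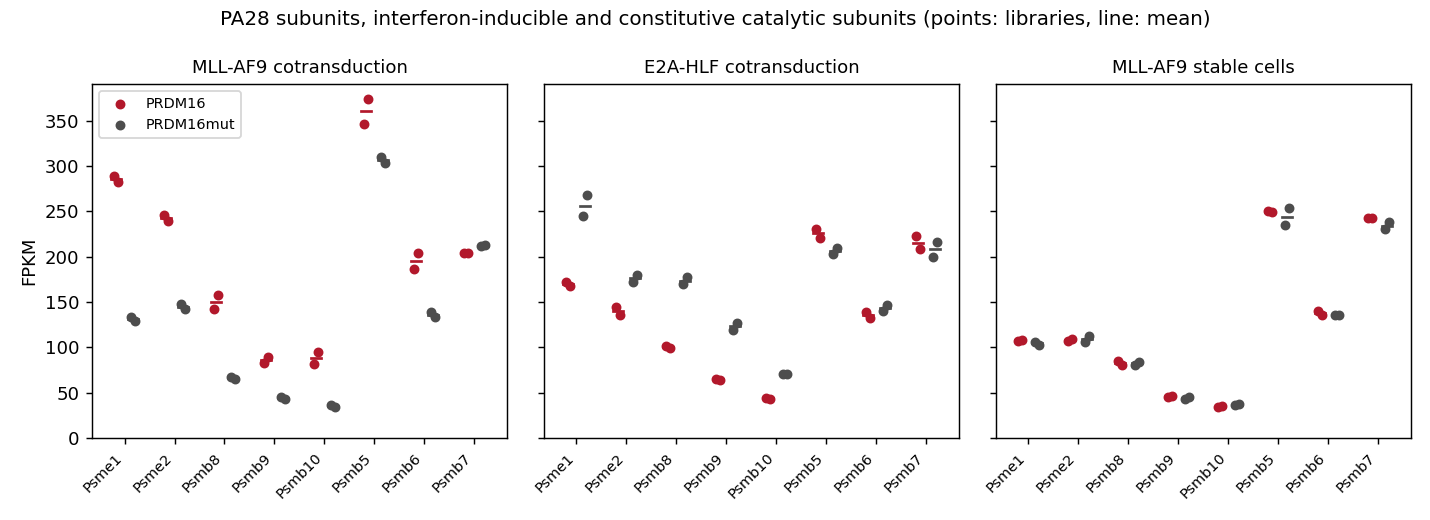
FPKM of the PA28 genes, the interferon-inducible catalytic genes and the constitutive catalytic genes in each library, PRDM16 left of PRDM16mut. Points are libraries and lines group means. Psme1 sits at 288 and 282 FPKM with PRDM16 against 133.5 and 129 FPKM with PRDM16mut in the left panel and at 172.5 and 167 FPKM with PRDM16 against 245 and 267 FPKM with PRDM16mut in the middle panel.

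Interferon genes moved with the same groups. Of a list of 20 interferon-induced and antigen-processing genes, 18 rose and 1, Oas2, fell in cotransduced MLL-AF9 cells, against 35.6 percent of all genes higher and 34 percent lower, with a median difference of 1.07 on the log2 scale. In E2A-HLF cells all 20 fell, against 21.1 percent of all genes, with a median of -1.62. Some of these genes passed the filter only through the group where they were high, so their direction was fixed and their calls support nothing. They were Ifit3, Rsad2 and Nlrc5 in cotransduced MLL-AF9 cells, and Ifit1, Ifit3, Oas2, Oasl2, Usp18 and Nlrc5 in E2A-HLF cells. Rtp4 in E2A-HLF cells had 0.830 and 1.083 FPKM with PRDM16. It would not have passed on its PRDM16 libraries alone, so its call supports nothing either. Both medians include such genes. None of the 12 that could be tested in stable cells was called with limma, and 1 was called lower with quantile normalization. Their summed level was 417 to 438 FPKM with PRDM16 against 200 to 204 FPKM with PRDM16mut, 174 to 180 FPKM with PRDM16 against 405 to 406 FPKM with PRDM16mut, and 147 to 153 FPKM with PRDM16 against 155 to 156 FPKM with PRDM16mut in the 3 experiments in this order. Their part in the differences of Psme1, Psme2 and Psmb8 to Psmb10 was not tested.

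The promoters of Psmb5 and Psmb6 are shown because they hold a match to TGACNNNGC, the form of the antioxidant response element bound by NRF1 and NRF2. The windows are RefSeq sequence of GRCm38.p6, Psmb5 at chr14:54617996-54618245 on the minus strand and Psmb6 at chr11:70525107-70525356 on the plus strand, with the match in capitals. Of 41 windows of the 38 members that RefSeq lists, 12.2% held this motif, against 10.2% of 32851 windows of all genes. CCAAT was in 34.1% of member windows against 33.8%, and the interferon-stimulated response element in 7.32% against 2.98%. A match describes the letters and is not a bound site.
Psmb5: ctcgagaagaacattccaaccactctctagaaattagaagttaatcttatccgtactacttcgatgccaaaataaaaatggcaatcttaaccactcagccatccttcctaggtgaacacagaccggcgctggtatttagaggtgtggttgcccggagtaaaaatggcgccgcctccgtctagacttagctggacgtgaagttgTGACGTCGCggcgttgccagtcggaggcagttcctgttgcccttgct
Psmb6: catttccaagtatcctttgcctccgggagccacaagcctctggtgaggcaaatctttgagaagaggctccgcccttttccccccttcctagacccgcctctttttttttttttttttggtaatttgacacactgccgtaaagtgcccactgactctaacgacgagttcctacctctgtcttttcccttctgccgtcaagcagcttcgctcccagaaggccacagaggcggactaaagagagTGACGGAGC

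Psma1 to Psma7 make up the alpha rings, which gate the core. Of 7 alpha genes tested in cotransduced MLL-AF9 cells, Psma7 rose and Psma6 fell, where 69.5 percent of all genes were called. Psma7 had 359 and 350.5 FPKM with PRDM16, against 257 and 255 FPKM with PRDM16mut (0.47 ± 0.05, limma, adjusted p = 0.000509), and the call held in all 10 alternatives. In E2A-HLF cells Psma7 had 287 and 272 FPKM with PRDM16 against 265 and 281 FPKM with PRDM16mut, and in stable cells 280 and 294.5 FPKM with PRDM16 against 286 and 292.5 FPKM with PRDM16mut, with overlapping groups in both. Psma6 had 201 and 190 FPKM with PRDM16, against 252 and 247 FPKM with PRDM16mut in cotransduced MLL-AF9 cells (-0.35 ± 0.05, adjusted p = 0.00252), a call lost without PRDM16mut replicate 1. The PRDM16 libraries were thus high for 1 alpha subunit and low for another subunit of the same ring. The other alpha subunits, Psma1 to Psma5, differed by -0.12 to 0.15 without a call.

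Of the 4 structural beta genes, Psmb1, Psmb3 and Psmb4 rose in cotransduced MLL-AF9 cells, by 0.42, 0.21 and 0.36 on the log2 scale. Of all genes 35.6 percent were called higher there. The call of Psmb3 was lost with either PRDM16mut library left out and with quantile normalization. Psmb2 differed by 0.13 without a call (limma, adjusted p = 0.0513). No structural beta gene was called in E2A-HLF cells, where differences ran from -0.02 to 0.12, or in stable cells, where they ran from -0.01 to 0.11.

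Psma8 is given as a description only. It encodes an alpha subunit of the testis form of the core, which takes the place of Psma7 in germ cells. With E2A-HLF as the fusion gene it had 10.1 and 9.67 FPKM with PRDM16, while the PRDM16mut libraries held 0.0176 and 0 FPKM. In stable cells it had 11.75 and 11.3 FPKM with PRDM16, against 10.45 and 9.545 FPKM with PRDM16mut. In cotransduced MLL-AF9 cells it had 0 and 0.0109 FPKM with PRDM16, against 0.385 and 0.461 FPKM with PRDM16mut. Psma8 was thus listed near 10 FPKM in 6 libraries and under 1 FPKM in the other 6. The difference in E2A-HLF cells was 3.43 ± 0.06 on the log2(FPKM + 1) scale, which understates the change of low genes. Psma8 entered the test there only through the PRDM16 libraries, so it had to differ and its p is not given. In stable cells the difference was 0.19 without a call (adjusted p = 0.0893), and in cotransduced MLL-AF9 cells Psma8 was too low to be tested, so no difference between experiments was tested.

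The protein-coding genes on either side of Psma8 in RefSeq showed smaller differences. Ss18 had 43.4 and 43.7 FPKM with PRDM16, against 42.9 and 44.6 FPKM with PRDM16mut in E2A-HLF cells. Taf4b had 4.135 and 4.21 FPKM with PRDM16 against 3.555 and 3.34 FPKM with PRDM16mut, a difference of 0.22. On the same scale, which corrects for length, Psma7 ran from 255 to 359 FPKM over the 12 libraries and Psma8 from 0 to 11.75 FPKM.

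**Figure D3:**
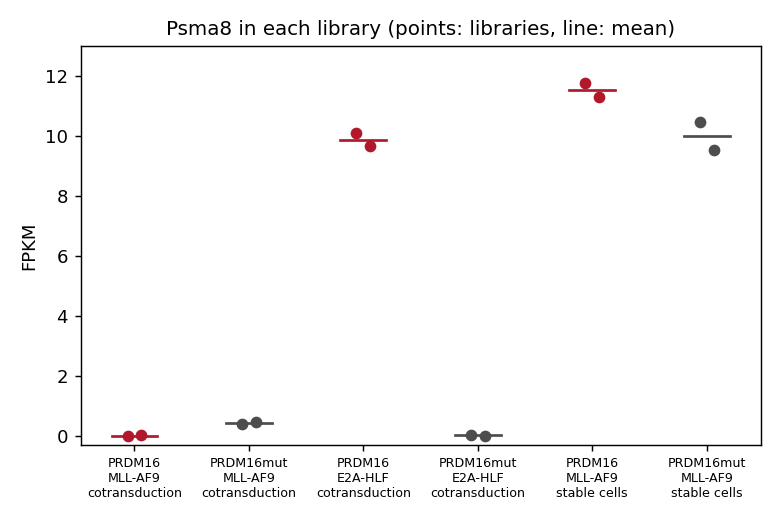
FPKM of Psma8 in each of the 12 libraries, PRDM16 left of PRDM16mut within each experiment. Points are libraries and lines group means. The PRDM16 libraries of E2A-HLF cells (10.1 and 9.67) and all 4 libraries of stable cells stand above the other 6, which are under 1 FPKM.

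Psmb11, the catalytic subunit of the thymus cortex, ran from 0.00703 to 0.105 FPKM over the 12 libraries and was tested in no table.

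In cotransduced MLL-AF9 cells 69.5 percent of all genes were called. Among the 6 ATPases of the 19S base, which unfold the substrate, Psmc4 rose by 0.18 and Psmc6 fell by 0.28 there. Both calls were lost with either PRDM16mut library left out, Psmc4 also with quantile normalization and Psmc6 also without the filter and with a pseudocount of 0.1. Differences of the ATPases ran from 0.03 to 0.11 in E2A-HLF cells and from -0.11 to 0.08 in stable cells, without a call.

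Of the 11 non-ATPase members, Psmd4, Psmd7 and Psmd8 rose in cotransduced MLL-AF9 cells, where 35.6 percent of all genes were called higher. Psmd8 encodes a lid subunit, Rpn12, and had 203 and 213 FPKM with PRDM16, against 107 and 109 FPKM with PRDM16mut (0.94 ± 0.05, limma, adjusted p = 6.16e-05). In E2A-HLF cells it had 126 and 120 FPKM with PRDM16 against 120 and 127 FPKM with PRDM16mut, and in stable cells 113 and 113 FPKM with PRDM16 against 102.5 and 109 FPKM with PRDM16mut. The 2 PRDM16 libraries of cotransduced MLL-AF9 cells stood above the other 10. Set against the median 19S member of the same library, Psmd8 stood at 1.945 and 2.01 with PRDM16 and 1.07 and 1.08 with PRDM16mut in cotransduced MLL-AF9 cells, and at no more than 1.30 in the other 8 libraries. Its effect differed by 0.96 ± 0.07 between cotransduced MLL-AF9 and E2A-HLF cells (limma, adjusted p = 3.97e-07), and its call held in all 10 alternatives. Psmd4, the ubiquitin receptor Rpn10, rose by 0.41 ± 0.06 (adjusted p = 0.00172), also in all 10.

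Psmd7 encodes Rpn8, the partner of the deubiquitinase Rpn11 in the lid. It had 121.5 and 124 FPKM with PRDM16, against 106.5 and 103 FPKM with PRDM16mut in cotransduced MLL-AF9 cells (0.23 ± 0.05, limma, adjusted p = 0.00985). With E2A-HLF as the fusion gene it had 142 and 140 FPKM with PRDM16, against 174 and 185 FPKM with PRDM16mut (-0.35 ± 0.05, adjusted p = 0.00274). The PRDM16 libraries were the high ones in the first and the low ones in the second. The higher call was lost with either PRDM16mut library left out, and the lower call held in all 10 alternatives. In stable cells Psmd7 had 102 and 102 FPKM with PRDM16 against 106 and 111 FPKM with PRDM16mut, without a call. Psmd14, which encodes Rpn11 itself, differed by -0.12, 0.05 and 0.08 in the 3 experiments, without a call. In E2A-HLF cells Psmd2, a ubiquitin receptor of the base known as Rpn1, rose by 0.18 ± 0.04 (limma, adjusted p = 0.0174), a call lost with either PRDM16 library left out, without PRDM16mut replicate 1 and with quantile normalization or the replicate block.

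The 3 members that are chaperones of 19S base assembly were low next to the subunits. Psmd5, known as S5b, had 43.04 and 43.41 FPKM with PRDM16, against 48.75 and 48.02 FPKM with PRDM16mut in cotransduced MLL-AF9 cells (-0.16 ± 0.05, limma, adjusted p = 0.0330). In E2A-HLF cells it had 49.8 and 45.6 FPKM with PRDM16, against 39.6 and 41.05 FPKM with PRDM16mut (0.24 ± 0.06, adjusted p = 0.0177). Groups did not overlap in either, but the first call was lost with either PRDM16mut library left out and with the replicate block, and the second without PRDM16 replicate 1 or PRDM16mut replicate 1. In stable cells Psmd5 had 53.5 and 52.1 FPKM with PRDM16 against 51.4 and 53.55 FPKM with PRDM16mut. Psmd9, known as p27, had 13.1 and 13.6 FPKM with PRDM16 against 12.4 and 12.9 FPKM with PRDM16mut, 14.6 and 14.7 FPKM with PRDM16 against 12.96 and 13.45 FPKM with PRDM16mut, and 12.92 and 12.97 FPKM with PRDM16 against 12.7 and 12.5 FPKM with PRDM16mut in the 3 experiments. Psmd10, the oncoprotein gankyrin, had 21.3 and 19.2 FPKM with PRDM16 against 22.98 and 22.03 FPKM with PRDM16mut, 23.2 and 20.7 FPKM with PRDM16 against 21.5 and 23.03 FPKM with PRDM16mut, and 24.7 and 24.1 FPKM with PRDM16 against 22.5 and 24.8 FPKM with PRDM16mut. Neither Psmd9 nor Psmd10 was called in any experiment.

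The 4 members that are chaperones of 20S assembly pair as Psmg1 with Psmg2 and Psmg3 with Psmg4, and of these only Psmg4 was called. Pomp, a 20S assembly factor outside the rule, rose by 0.28 in cotransduced MLL-AF9 cells (limma, adjusted p = 0.0231). That call was lost without the filter, with quantile normalization and with either PRDM16mut library left out. Pomp had no call in E2A-HLF cells (0.04) or stable cells (0.06). Psmg4, known as PAC4, had 62.1 and 66.6 FPKM with PRDM16, against 47.0 and 46.8 FPKM with PRDM16mut in cotransduced MLL-AF9 cells (0.45 ± 0.06, limma, adjusted p = 0.0013). With E2A-HLF as the fusion gene it had 39.98 and 36.4 FPKM with PRDM16, against 48.2 and 50.4 FPKM with PRDM16mut (-0.36 ± 0.06, adjusted p = 0.00417), and both calls held in all 10 alternatives. The PRDM16 libraries were the high ones in the first experiment and the low ones in the second, and the groups overlapped in stable cells, at 43.7 and 46.1 FPKM with PRDM16 against 41.4 and 44.0 FPKM with PRDM16mut. Its partner Psmg3 had 38.8 and 42.1 FPKM with PRDM16 against 37.0 and 37.2 FPKM with PRDM16mut, 47.1 and 42.8 FPKM with PRDM16 against 38.3 and 41.9 FPKM with PRDM16mut, and 40.3 and 40.3 FPKM with PRDM16 against 40.6 and 41.7 FPKM with PRDM16mut in the 3 experiments. Psmg1 had 36.9 and 39.65 FPKM with PRDM16 against 38.4 and 40.1 FPKM with PRDM16mut, 58.4 and 53.4 FPKM with PRDM16 against 54.3 and 55.4 FPKM with PRDM16mut, and 56.4 and 56.25 FPKM with PRDM16 against 54.2 and 53.7 FPKM with PRDM16mut. Psmg2 had 38.1 and 34.5 FPKM with PRDM16 against 39.7 and 38.5 FPKM with PRDM16mut, 58.7 and 56.5 FPKM with PRDM16 against 53.4 and 57.75 FPKM with PRDM16mut, and 54.25 and 54.1 FPKM with PRDM16 against 50.95 and 54.4 FPKM with PRDM16mut. Psmg1, Psmg2 and Psmg3 had no call in any experiment.

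Psmf1 encodes PI31, a binding partner of the 20S core that inhibits it in vitro. It had 13.9 and 15.1 FPKM with PRDM16, against 11.7 and 12.4 FPKM with PRDM16mut in cotransduced MLL-AF9 cells (0.25 ± 0.07, limma, adjusted p = 0.0221), a call lost with either PRDM16mut library left out. In E2A-HLF cells it had 12.2 and 11.4 FPKM with PRDM16 against 11.4 and 11.7 FPKM with PRDM16mut, and in stable cells 11.5 and 10.85 FPKM with PRDM16 against 11.4 and 11.75 FPKM with PRDM16mut, with overlapping groups in both. Psmc3ip, which is no proteasome gene, fell by 0.25 in cotransduced MLL-AF9 cells, also lost with either PRDM16mut library left out.

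The 20S core and the 19S cap were summed to compare their levels. In cotransduced MLL-AF9 cells the 14 subunits of the standard 20S core averaged 247 and 244 FPKM with PRDM16, against 219 and 216 FPKM with PRDM16mut. The 17 members that are subunits of the 19S particle averaged 109 and 109.7 FPKM with PRDM16 there, against 100.5 and 99.3 FPKM with PRDM16mut. Adrm1 and Shfm1, 19S subunits outside the rule, are not in this average. Adrm1 had 88.75 and 96.2 FPKM with PRDM16 there, against 78.7 and 75.7 FPKM with PRDM16mut. Shfm1 had 605 and 489 FPKM with PRDM16, against 649 and 658 FPKM with PRDM16mut. Psmd8 alone had means of 208 against 108 FPKM, within sums of 1861 against 1699 FPKM for the 19S members. Summed FPKM over all genes was also higher in these PRDM16 libraries, 683269 and 672564 against 631132 and 622670 FPKM with PRDM16mut. The part of library scale in these averages was not tested. In E2A-HLF cells the core averaged 222 and 211 FPKM with PRDM16 against 205 and 218 FPKM with PRDM16mut, with overlapping groups. The ratio of core to cap over these members, without Adrm1 and Shfm1, stayed between 2.14 and 2.32 in all 12 libraries. The PA28 sum of Psme1 and Psme2 was 534 and 522 FPKM with PRDM16, against 281 and 271 FPKM with PRDM16mut in cotransduced MLL-AF9 cells, and 317 and 303 FPKM with PRDM16 against 417 and 447 FPKM with PRDM16mut in E2A-HLF cells.

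**Figure D4:**
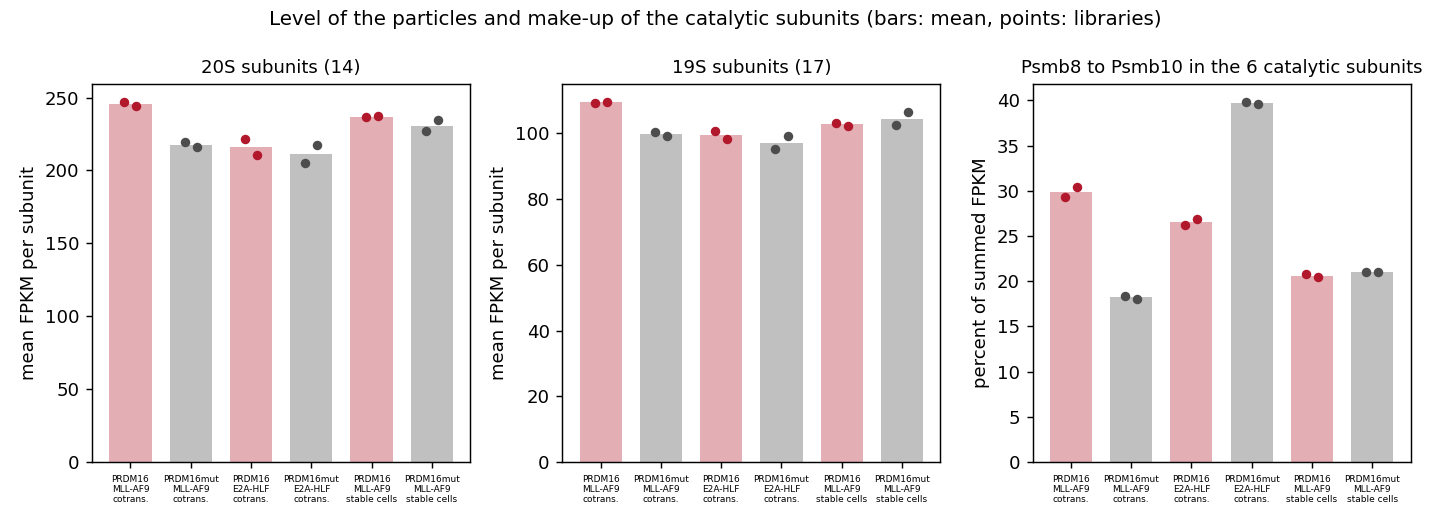
Mean FPKM per subunit of the 20S core and of the 19S members, and the percent that Psmb8 to Psmb10 make up of the summed FPKM of the 6 catalytic subunits, PRDM16 left of PRDM16mut in each experiment. Bars are means and points libraries. The share runs from 17.98% to 39.9% while the core runs from 205 to 247 FPKM per subunit.

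Levels were set across 3 tables that were processed separately, so they are given as a description. Medians over the 12 libraries ran from 138.8 FPKM for Psmb6 to 301 FPKM for Psmb4 in the standard 20S core, and from 57.45 FPKM for Psmd11 to 139.5 FPKM for Psmd2 among the 19S members. The assembly chaperones among the members ran from 12.96 to 53.9 FPKM and Psmf1 stood at 11.7 FPKM, far below the subunits they act on. Of the 45 members with a median over 1 FPKM, 41 varied by less than 2 times between their highest and lowest library and 28 by less than 1.5 times. The members that varied by more than 2 times were Psma8, Psme1, Psme2 and Psmd8.

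Differences between experiments were tested directly, in 1 fit in which the contrasts share comparisons. Between cotransduced MLL-AF9 cells and E2A-HLF cells the effect differed for 22 of 44 members tested, against 71.4 percent of all genes, with 13 more positive in cotransduced MLL-AF9 cells. Between cotransduced MLL-AF9 cells and stable cells it differed for 20, against 64 percent, and between E2A-HLF cells and stable cells for 8, against 37.1 percent. The last count was 13 when either PRDM16 library of cotransduced MLL-AF9 cells was left out of the shared fit. Psme1 and Psme2 differed in each of the 3 tests, Psme1 by 1.70, 1.07 and -0.63 and Psme2 by 1.07, 0.75 and -0.32 on the log2 scale.

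Partners outside the rule included ubiquitin genes, shuttle factors and regulators of transcription. Of 28 that all tables list, 15 rose and 3 fell in cotransduced MLL-AF9 cells, 7 rose and 2 fell in E2A-HLF cells, and 1, the shuttle factor Ubqln4, fell in stable cells. This is 64.3, 32.1 and 3.57 percent of those tested in the 3 experiments in this order. Of all genes 69.5, 43.8 and 6.36 percent were called, so with both directions together the shares of partners are lower. By direction, 53.6 percent of partners were called higher in cotransduced MLL-AF9 cells against 35.6 percent of all genes, and 10.7 percent lower against 34 percent. In E2A-HLF cells 25 percent were higher against 22.7 percent, and 7.14 percent lower against 21.1 percent. The 3.57 percent lower in stable cells stood against 2.16 percent. The counts higher and lower in cotransduced MLL-AF9 cells were 8 and 2 with either PRDM16mut library left out, 19 and 6 without PRDM16 replicate 1, 19 and 7 without PRDM16 replicate 2, 15 and 7 with the replicate block, 17 and 7 in the joint fit of all tables, 11 and 3 without the filter, and 13 and 5 with quantile normalization. The call on Ubqln4 was lost when any 1 of the 4 libraries was left out. The ubiquitin genes Ubb and Rps27a rose in cotransduced MLL-AF9 cells, by 0.54 and 0.52 on the log2 scale, and both calls held in all 10 alternatives. Sqstm1, the autophagy receptor p62, had 349.5 and 371 FPKM with PRDM16, against 164 and 163 FPKM with PRDM16mut (1.13 ± 0.05, limma, adjusted p = 3.84e-05). Nfe2l2, which encodes NRF2, an oxidative stress factor known to activate Sqstm1, had 100.3 and 97.1 FPKM with PRDM16 against 49.35 and 49.7 FPKM with PRDM16mut (0.98 ± 0.05, adjusted p = 5e-05). In E2A-HLF cells Nfe2l2 had 39.94 and 39.08 FPKM with PRDM16, against 47.53 and 49.29 FPKM with PRDM16mut (-0.29, limma, adjusted p = 0.00318), a call that held in all 10 alternatives. In stable cells it had 26.3 and 25.05 FPKM with PRDM16, against 24.25 and 23.66 FPKM with PRDM16mut, a difference of 0.10 without a call. For Nfe2l2 the PRDM16 libraries were thus the high ones in cotransduced MLL-AF9 cells and the low ones in E2A-HLF cells. Sqstm1 did not fall with it in E2A-HLF cells. It had 176.6 and 171.6 FPKM with PRDM16 there, against 159.8 and 162.8 FPKM with PRDM16mut, a difference of 0.11 without a call. In stable cells Sqstm1 had 84.5 and 81.7 FPKM with PRDM16 against 79.5 and 82.4 FPKM with PRDM16mut, with overlapping groups.

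Nfe2l1, Ngly1 and Ddi2 rose with PRDM16 in E2A-HLF cells. NRF1 needs the deglycosylase Ngly1 and the protease Ddi2 to become active. Nfe2l1 had 33.4 and 33.6 FPKM with PRDM16, against 22.4 and 21.97 FPKM with PRDM16mut (0.57 ± 0.04, limma, adjusted p = 0.000161). Ngly1 had 18.9 and 17.3 FPKM with PRDM16 against 10.1 and 10.0 FPKM with PRDM16mut (0.79 ± 0.06, adjusted p = 0.000167), and Ddi2 12.5 and 14.7 FPKM with PRDM16 against 10.4 and 9.58 FPKM with PRDM16mut (0.41 ± 0.08, adjusted p = 0.011). None of these groups overlapped, and the 3 calls held in all 10 alternatives. Of the members that are 20S and 19S subunits, in the same cells, Psmd2 rose, Psmd7 fell and 29 of the 32 tested had no call, Psma8 being the other one called, against 43.8 percent of all genes called. In cotransduced MLL-AF9 cells Nfe2l1 rose by 0.24 and Ngly1 by 0.21, both lost with either PRDM16mut library left out and Ngly1 also without the filter, and Ddi2 differed by -0.44 without a call (adjusted p = 0.0516). In stable cells the 3 differed by 0.06, 0.13 and -0.05 without a call, and differences between experiments were not tested for them.

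**Figure D5:**
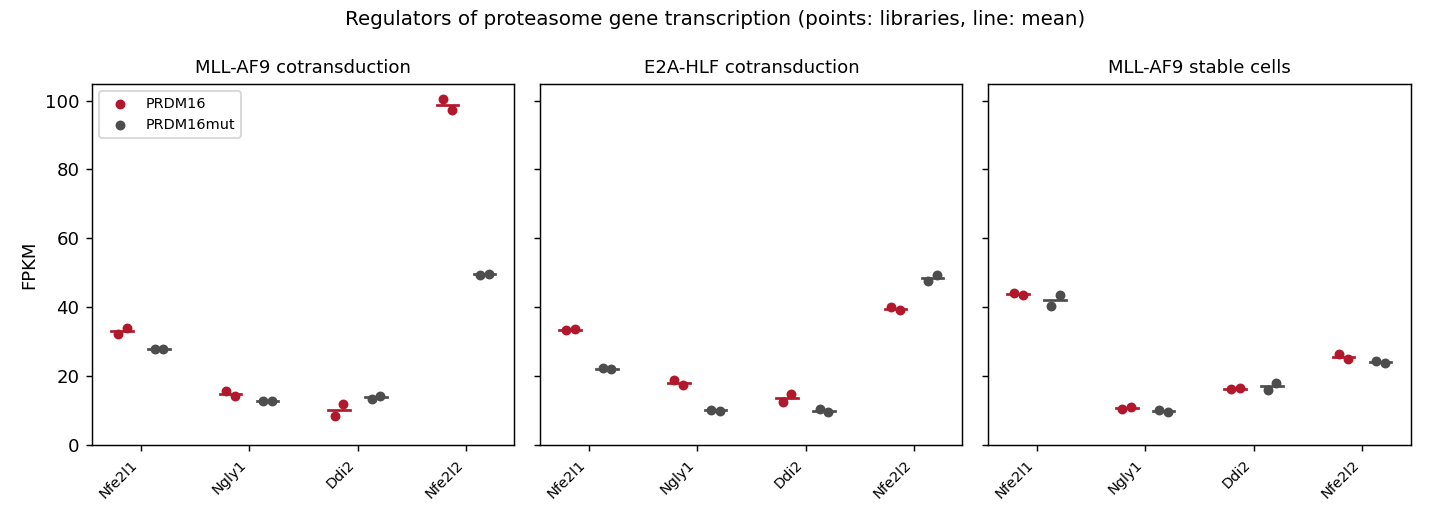
FPKM of Nfe2l1, Ngly1, Ddi2 and Nfe2l2 in each library, PRDM16 left of PRDM16mut. Points are libraries and lines group means. Nfe2l1 and Ngly1 sit higher with PRDM16 in the middle panel (33.4 and 33.6 FPKM with PRDM16 against 22.4 and 21.97 FPKM with PRDM16mut for Nfe2l1), and Nfe2l2 sits higher with PRDM16 in the left panel (100.3 and 97.1 FPKM with PRDM16 against 49.35 and 49.7 FPKM with PRDM16mut) and lower with PRDM16 in the middle panel (39.94 and 39.08 FPKM with PRDM16 against 47.53 and 49.29 FPKM with PRDM16mut).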

How the data were processed

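RNA was profiled in 12 libraries, 2 per group. The authors deposited 3 tables of FPKM per gene symbol, 1 per experiment, and per the submitters' processing notes used Bowtie2 2.0.0.7, TopHat2 2.0.3 and Cuffdiff on mm9. For the annotation and any scaling between libraries, the sources used here give nothing. Reads shared with near-identical copies cannot be separated in these tables.

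Values were taken as log2(FPKM + 1) and tested in R 4.3.3 with limma 3.58.1 (trended moderated variance, two-sided), PRDM16 minus PRDM16mut within a table, over genes with at least 1 FPKM in at least 2 of 4 libraries. Differences between experiments came from 1 fit of all 12 libraries over 9488 genes. The procedure was tested on simulated data. Depth is unknown, so no counting error is given. Promoter windows come from RefSeq for GRCm38.p6 and were used for sequence only.

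The members, the role lists, the partner and interferon lists and the marker lists were chosen with earlier results of these data known. Values in every library are given for the 5 largest called members of each comparison, the 3 largest differences per contrast, the catalytic, activator, inhibitor and chaperone genes and Psma8, and Psmb11 is given by its range; other genes are named as list members or as called members chosen after their values were seen. Alternatives were a pseudocount of 0.1, no filter, a filter of 5 FPKM, quantile normalization, a spread shared over all 12 libraries, a replicate block and leaving out each library. Some genes and motifs of these lists are not reported here.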

Additional observations from a re-analysis of the deposited data

Results flagged for a closer look

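The effect of PRDM16 against PRDM16mut on proteasome genes differed between experiments by the test of the difference itself (limma, 12 libraries). It differed for 22 of 44 members tested between cotransduced MLL-AF9 cells and E2A-HLF cells, against 71.4 percent of all genes, for 20 between cotransduced MLL-AF9 cells and stable cells, against 64 percent, and for 8 between E2A-HLF cells and stable cells, against 37.1 percent. In the first contrast the differences on the log2 scale were 1.70 for Psme1, 1.07 for Psme2 and 0.96 for Psmd8. In the second they were 1.07 for Psme1, 0.75 for Psme2 and 0.85 for Psmd8. In the third they were -0.63 for Psme1, -0.32 for Psme2 and -0.43 for Psmg4. The interferon genes and cell type markers also differed between PRDM16 and PRDM16mut in both cotransduced cell types, and Prdm16 transcript in cotransduced MLL-AF9 cells and stable cells, and their part was not tested.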

How the results depend on the processing

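No called value of a named member changed sign under any alternative run, but 29 values without a call did, all near 0 on the log2 scale; 652 kept their sign and their side of the threshold, 21 lost a call and 9 gained one. With quantile normalization the sign changed in E2A-HLF cells for Psma7 (-0.04), Psmb7 (-0.03), Psmf1 (0.00), Psmg1 (-0.06) and Psmg2 (-0.03), and in stable cells for Psmb5 (-0.02), Psmb6 (-0.01) and Psmd5 (-0.01). With a library left out, Psmg1 ran from -0.09 to 0.01 in cotransduced MLL-AF9 cells. In E2A-HLF cells the ranges were -0.01 to 0.07 for Psma7, -0.01 to 0.11 for Psmb7, 0.00 to 0.11 for Psmg2, -0.02 to 0.07 for Psmf1, -0.04 to 0.09 for Psmg1, -0.10 to 0.06 for Psmd10 and -0.05 to 0.03 for Psmd8. In stable cells they were -0.05 to 0.03 for Psma7 and Psme2, -0.02 to 0.04 for Psmd5, -0.02 to 0.09 for Psmb5, -0.02 to 0.11 for Psmd10, 0.00 to 0.09 for Psme4 and -0.01 to 0.09 for Psmg2. Of 20 members called in cotransduced MLL-AF9 cells, 11 lost the call in at least 1 alternative, and 3 of 8 did in E2A-HLF cells. Leaving out each library gave 9 to 31 called members in cotransduced MLL-AF9 cells, 5 to 8 in E2A-HLF cells and 0 in stable cells, and 6 to 13 members whose effect differed between E2A-HLF cells and stable cells. The median log2 difference of the members was 0.0723 in cotransduced MLL-AF9 cells; it was 0.0751 with a pseudocount of 0.1, 0.0595 with no filter, -0.0218 with quantile normalization and 0.0561 to 0.0647 with a library left out. In E2A-HLF cells it was 0.0516, -0.0292 with quantile normalization and 0.0192 to 0.0995 with a library left out, and in stable cells 0.0081 and -0.0207 to 0.0313. With quantile normalization 4 members were called in stable cells, and the mean log2 difference of the catalytic pair ratios (Psmb8 to Psmb5 and the like) was 0.99 in place of 0.92 in cotransduced MLL-AF9 cells and -0.03 in place of -0.04 in stable cells. The cause of these changes was not tested. The labels give groups the same replicate numbers but do not say whether these pair the samples. Differences of replicate 2 minus replicate 1 correlated at -0.0215, 0.0627 and 0.429 between the groups of each table. Between groups of different tables, which share no experiment, the correlations ran from -0.0852 to 0.34. With 2 libraries per group these values cannot decide whether samples are paired. A replicate block gave 19, 7 and 0 called members and 17, 17 and 7 differences between experiments. Depth is unknown, so values near 0, as for Psma8 and Psmb11, cannot be given a floor.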
